A study of Mus musculus with 16 samples.

Results

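The miR-200 family was measured as 5 mature miRNAs in the culture supernatant of HCT116, an established human colorectal carcinoma line of epithelial origin. The members were the array names hsa-miR-200c-3p, hsa-miR-141-3p, hsa-miR-200a-3p, hsa-miR-200b-3p and hsa-miR-429, which are 5 of the 1205 human miRNAs on the array. They come from 2 loci of the human genome. The genes of miR-200c and miR-141 lie side by side on chromosome 12, and those of miR-200a, miR-200b and miR-429 lie together on chromosome 1.

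Cells received 0, 2, 6 or 10 Gy of X-rays at a high dose rate, and the supernatant was taken 72 h later, from RPMI1640 medium with 10% fetal bovine serum in all groups. Each dose had 4 cultures, described as independent, and each culture had 1 single-colour Agilent array labelled from 100 ng of RNA. The labels give mouse as the organism and the design text calls the line murine. The line and the array's probes are human, and the members were taken as human. The 2 Gy group, absent from the design text, rests on the labels of its arrays. All groups come from 1 cell line, and no array of medium without cells was analysed here. In supernatant RNA, fewer cells that release a miRNA and less release per cell cannot be told apart.

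The family is known for its role in keeping cells epithelial. Its members bind the 3′ ends of the messenger RNAs of ZEB1 and ZEB2, transcription factors that shut off E-cadherin and drive the epithelial-to-mesenchymal transition, and the ZEB proteins in turn repress both miR-200 loci. Colon epithelium and epithelial-type colon carcinoma lines carry the family at high levels, and it is released into extracellular fluid. Target choice rests mainly on the seed, bases 2 to 8 of the mature strand, and the family has 2 seeds that differ at 1 base.

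The mature sequences are shown because the 2 loci each hold both seeds, so that locus and seed can be followed separately in the values below. They are those of the mouse orthologues, from RefSeq (GRCm38.p6, minus strand), in which all 5 members found a match; the human sequences were not used here. Capitals mark the seed.
mmu-miR-200c-3p, chr6:124718324-124718346: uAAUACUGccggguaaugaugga
mmu-miR-141-3p, chr6:124717917-124717938: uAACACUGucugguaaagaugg
mmu-miR-200a-3p, chr4:156054911-156054932: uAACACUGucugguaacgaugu
mmu-miR-200b-3p, chr4:156055685-156055706: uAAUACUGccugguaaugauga
mmu-miR-429-3p, chr4:156053916-156053937: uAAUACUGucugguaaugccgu
The seed AAUACUG was shared by miR-200c, miR-200b and miR-429, and by no other of the 1679 mature names in the mouse table. The seed AACACUG was shared by miR-141 and miR-200a, again by these alone. Counted from the 5′ end, miR-200c and miR-141 differ in the seed by U4C. Members with the same seed on different loci are close in sequence over their first 22 bases. In the mouse table miR-200c and miR-200b share 20 of 22 bases, and miR-141 and miR-200a also share 20 of 22. How far such pairs cross-hybridise on the array was not tested. The mouse hairpins of the pair span 477 bases and those of the cluster span 1846 bases.

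All 5 members were seen in the supernatant, those of chromosome 12 on more arrays than those of chromosome 1. Each member has 2 probes of 20 spots, and detection of a probe required more than 0.5 of those spots to stand well above background. It depends on a probe's affinity as well as on the level. By either probe, miR-200c and miR-141 were each detected on 15 of 16 arrays, missing only 6 Gy replicate 4. From the chromosome 1 cluster, miR-200b was detected on 8 of 16 arrays, miR-429 on 6 and miR-200a on 4. Agilent's own flag per miRNA gave 15 arrays for miR-200c, 16 for miR-141, 9 for miR-200b, 8 for miR-429 and 5 for miR-200a. For comparison, 34.0% of the human miRNAs on the array were detected on at least 1 array, and 23.5% on every array of 1 dose or more. Both seeds were represented among the members seen on 15 arrays and among those seen on 4 to 8. As the probes differ in affinity, these counts do not rank the loci by level. The other arms of the hairpins, miR-200c-5p, miR-141-5p, miR-200a-5p and miR-200b-5p, which are usually degraded as the passenger strand, were detected on 0 of 16 arrays.

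**Figure D1:**
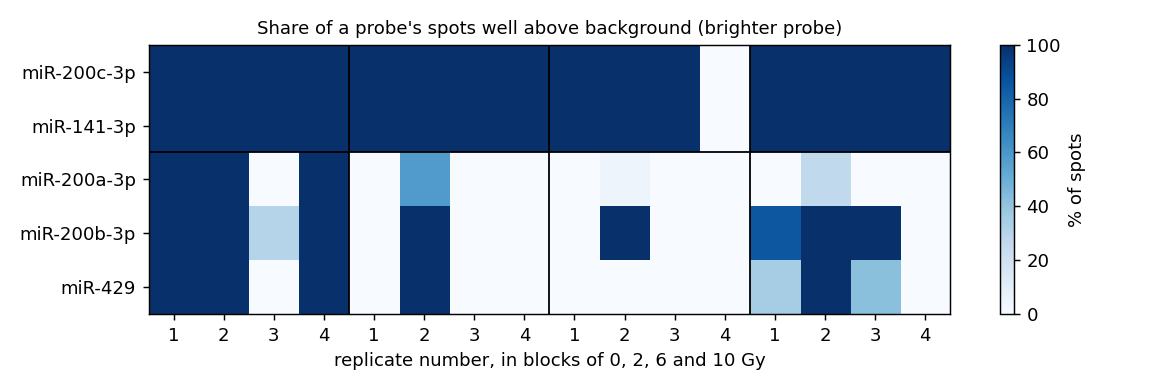
Share of a probe's spots that were well above background (colour, percent) for the brighter probe of each member (rows) on each of the 16 arrays (columns, replicates 1 to 4 in blocks of 0, 2, 6 and 10 Gy). The chromosome 12 pair in the upper 2 rows is dark on every array but 6 Gy replicate 4, whereas the chromosome 1 cluster is dark mainly on 3 of the 4 arrays at 0 Gy.

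The arrays at 0 Gy on which the cluster appeared were the same for its 3 members. Replicates 1, 2 and 4 detected miR-200a, miR-200b and miR-429, and replicate 3 detected none of them. At 2 Gy, replicate 2 alone detected all 3. At 6 Gy, replicate 2 detected miR-200b, and no array detected miR-200a or miR-429. At 10 Gy, miR-200b was detected on 3 arrays, miR-429 on 2 and miR-200a on 0. A higher number of detecting arrays at 0 Gy than at each other dose was found for miR-200a and miR-429, and for 4.90% of all human miRNAs. A pattern of at least 3 detecting arrays at 0 Gy and 0 at 6 Gy was found for the same members, and for 1.58% of all human miRNAs. Most of the 1205 human miRNAs were detected on no array and cannot show either pattern. Only the 192 that were detected on 1 to 15 of the 16 arrays can, and of these 59 showed the first pattern and 19 the second.

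The signals behind these calls are given for the brighter probe of each member, as the mean background-subtracted intensity of its spots before any scaling between arrays, for replicates 1 to 4 in turn. The members may not be ranked against each other, since probes differ in affinity. Arrays also differ in brightness, with a log2 75th percentile of 8.16 to 9.41 over the probes that every array detected. A member's readings on different arrays include that difference, and doses are compared on the scaled levels further below. The highest negative control probe of an array read 3.56 to 6.52 as an unscaled intensity.

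hsa-miR-200c-3p, which has the seed AAUACUG, read 240.5, 521, 52.0 and 439 at 0 Gy. At 2 Gy it read 35.1, 292, 26.7 and 37.7. At 6 Gy the readings were 24.7, 159, 48.0 and 0.084, the last of them not detected. At 10 Gy they were 133, 234, 152 and 40.4. Before scaling, 3 of the 4 unirradiated cultures stood above every other array but 2 Gy replicate 2. After scaling, 0 Gy replicate 1 (-0.53 in log2) was above 2 Gy replicate 2 (-1.22). On either scale 0 Gy replicate 3 lay among the irradiated cultures, so that the groups overlapped.

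hsa-miR-141-3p, which has the seed AACACUG and is cut from the same transcript as miR-200c, read 817, 967, 196 and 965 at 0 Gy. At 2 Gy it read 394, 1570, 158 and 218.5, where replicate 2 was the brightest of all 16 arrays before scaling. After scaling, this probe was lower there (1.21 in log2) than in 0 Gy replicates 1 and 4 (1.23 and 1.26). At 6 Gy the readings were 274, 478, 138 and 13.9. The lowest of these was not detected by the share of spots, although it was above every negative control probe of its array. At 10 Gy they were 554, 459, 416 and 161, and here too the doses overlapped.

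hsa-miR-200b-3p, the chromosome 1 member with the seed of miR-200c, read 52.4, 112, 15.5 and 101 at 0 Gy. It read 2.53, 54.6, 1.85 and 3.04 at 2 Gy, where all but replicate 2 were undetected. At 6 Gy it read 3.39, 25.6, 7.81 and 0.32, and at 10 Gy 21.4, 46.8, 24.5 and 10.4. The order of the arrays within a dose resembled that of miR-200c, with replicate 2 highest at 0, 2, 6 and 10 Gy before scaling. After scaling, replicate 4 was the highest at 0 Gy for both.

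hsa-miR-429, which shares that seed, read 27.5, 53.1, 1.29 and 49.7 at 0 Gy. At 2 Gy it read 0.26, 44.9, -0.13 and 0.0024, so that a single culture gave a signal. At 6 Gy it read 1.82, 11.3, 4.86 and -2.66, and at 10 Gy 15.2, 26.9, 15.4 and 2.88. Readings below 0 are spots dimmer than the subtracted background.

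hsa-miR-200a-3p, the chromosome 1 member with the seed of miR-141, was the least often detected of the 5. It read 28.8, 33.1, 1.09 and 32.0 at 0 Gy and 1.53, 18.6, -0.30 and 1.17 at 2 Gy. It read -0.50, 10.6, 1.96 and -0.89 at 6 Gy, and 5.87, 14.7, 6.87 and 1.80 at 10 Gy. Replicates 1, 2 and 4 at 0 Gy exceeded every reading at the other doses.

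The precision of a reading within an array is given by its spots, and it leaves out the variation of labelling and of arrays. Where a member was detected, the coefficient of variation over the spots of its brighter probe had a median of 6.61% for miR-200c and 6.05% for miR-141. It was 11.0% for miR-200b, 11.8% for miR-429 and 12.4% for miR-200a.

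To compare doses, signals were scaled to the array's 75th percentile over 518 probes that every array detected, values under 0.0412 in scaled units were set to that floor (log2 of -4.60), and log2 was taken. Both members of the chromosome 12 pair passed the filter for the test, as 2 of 283 human miRNAs for which some dose had a probe detected on its 4 arrays. For miR-200c 1 probe passed, and for miR-141 both did. None of the chromosome 1 members passed at any dose, so this fit gives them no test, and 0 Gy replicate 3 was the array that kept them out at 0 Gy. Most of their scaled values lie at the floor, so no fold is given for them from this fit. Under alternative settings miR-200b, with the most detections of the cluster, entered the test. With Agilent's total signal per miRNA it entered only through 0 Gy, the dose where it is high, so no test is read from that setting. Without 10 Gy replicate 4, an array that did not detect it, miR-200b entered only through the other 10 Gy arrays, all of which detected it. It entered because an array without detection was dropped, so no test is read from that setting either. Its difference at 6 Gy against 0 Gy there was -1.71. In the full set 3 of its 4 values at 6 Gy lay at the floor, so this size depends on the floor. Without 0 Gy replicate 3 the cluster enters only through the dose where it is high, so no test is read from that setting.

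**Figure D2:**
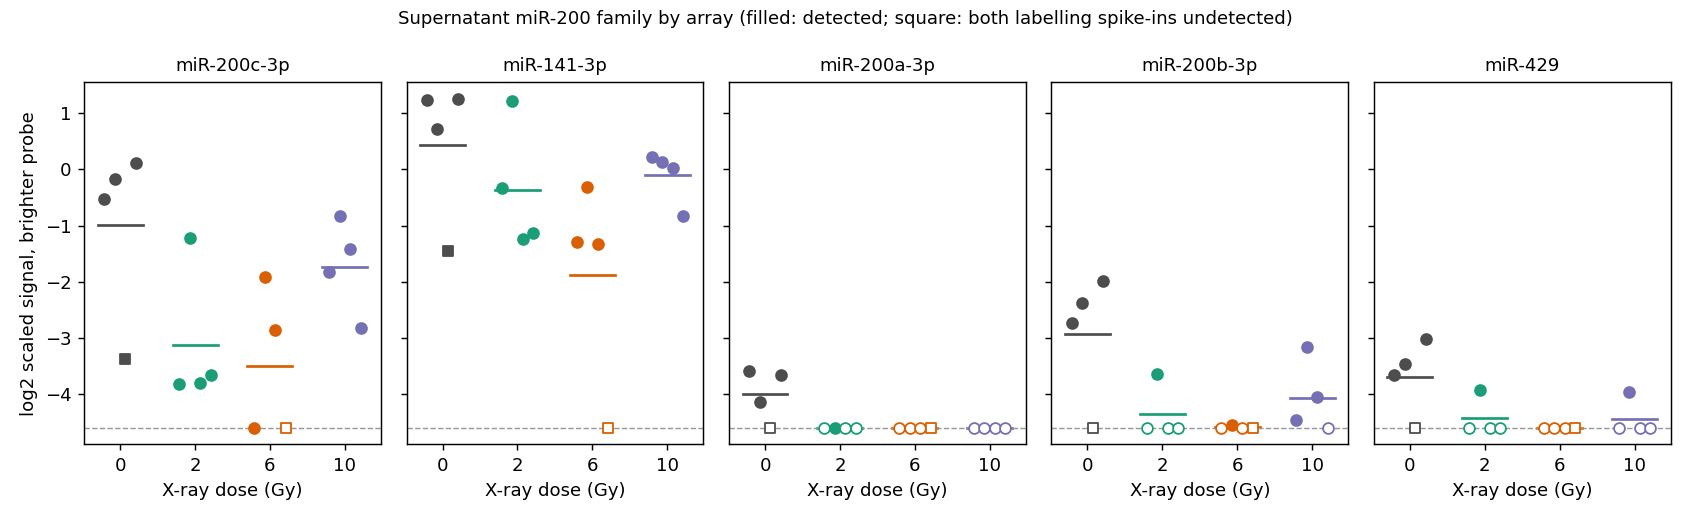
Log2 scaled signal of the brighter probe of each member (panels) by X-ray dose, 1 point per array, with the dose mean as a bar and the floor of -4.60 as a dashed line. Filled points are arrays on which this probe was detected, and squares are the arrays on which both labelling spike-ins were undetected (0 Gy replicate 3 and 6 Gy replicate 4). The 2 panels of the chromosome 12 pair are spread over several log2 units within a dose, and most points of the chromosome 1 cluster lie on the floor outside 0 Gy.

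On the scaled log2 level, miR-200c-3p was -0.53, -0.17, -3.38 and 0.12 in replicates 1 to 4 at 0 Gy, with a mean of -0.99 ± 1.61 (SD, n = 4). At 2 Gy it was -3.82, -1.22, -3.81 and -3.66 (mean -3.13 ± 1.28, SD, n = 4). At 6 Gy it was at the floor in replicates 1 and 4, and -1.91 and -2.86 in replicates 2 and 3 (mean -3.49 ± 1.34, SD, n = 4). At 10 Gy it was -1.83, -0.84, -1.43 and -2.83 (mean -1.73 ± 0.84, SD, n = 4). The order of the dose means was 0, 10, 2 and 6 Gy from high to low, and no pair of doses in that order passed the test.

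miR-141-3p was 0.40, -0.26, -2.33 and 0.36 at 0 Gy on the same scale (mean -0.46 ± 1.28, SD, n = 4). At 2 Gy it was -1.23, 0.28, -2.14 and -2.03 (mean -1.28 ± 1.12, SD, n = 4). At 6 Gy it was -2.15, -1.17 and -2.18 in replicates 1 to 3 and at the floor in replicate 4 (mean -2.52 ± 1.46, SD, n = 4). At 10 Gy it was -0.65, -0.75, -0.82 and -1.72 (mean -0.99 ± 0.49, SD, n = 4). The order of the dose means was that of miR-200c, and again no pair passed.

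The largest differences were those of 6 Gy against 0 Gy, and both fell just short of the threshold. limma was fitted over the 283 miRNAs with a mean per dose, and p-values were adjusted over all of them by Benjamini-Hochberg at 0.05. At 6 Gy miR-200c had a log2 difference of -2.50 ± 0.85 (SE), with an unadjusted p of 0.0104 and an adjusted p of 0.0514. miR-141 had a log2 difference of -2.07 ± 0.75 (SE), with an unadjusted p of 0.0155 and an adjusted p of 0.0570. Because 2 of the 4 values of miR-200c at 6 Gy and 1 of those of miR-141 lay at the floor, the sizes depend on it. They were -3.05 for miR-200c with a floor 4 times lower, and -2.003 for miR-200c and -1.82 for miR-141 with a floor 2 times higher. In all, 0 of the 2 tested members were called, against 19.4% of all tested miRNAs in either direction, 13.4% lower and 6.01% higher. The median difference over the 283 was 0.12, and 5 miRNAs had a more negative difference than miR-200c and 11 than miR-141. The call changed with single arrays. With 0 Gy replicate 3 left out and the same probes kept, both passed, at -3.29 for miR-200c (adjusted p = 0.00366) and -2.69 for miR-141 (adjusted p = 0.00815), as did 50.5% of all tested miRNAs. miR-200c also passed without 2 Gy replicate 2 (-2.49, adjusted p = 0.0335) and without 6 Gy replicate 2 (-3.01, adjusted p = 0.0366). miR-141 passed without each of these too, at -2.06 (adjusted p = 0.0449) and -2.51 (adjusted p = 0.0380). These 2 fits called 73 and 78 of all 283 tested miRNAs. With only the 8 arrays of these doses in the fit, neither passed (adjusted p = 0.150 and 0.169), nor did any of the 283, 75 of which had an unadjusted p under 0.05. All 0 Gy arrays lay on 1 slide and all 6 Gy arrays on another, so for this difference slide and dose cannot be told apart.

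At 2 Gy, on the slide that also carried 0 Gy, miR-200c had a log2 difference of -2.14 ± 0.85 (SE) against 0 Gy, which is a 4.40-fold lower mean level, with an unadjusted p of 0.0244 and an adjusted p of 0.0972. miR-141 had a difference of -0.82 ± 0.75 (SE), with an adjusted p of 0.424 and a 95% interval from -2.43 to 0.79. Neither was called, against 12.7% of all tested miRNAs in either direction, 6.71% lower and 6.01% higher. Over the 283, whose median was 0.03, 7 had a more negative difference than miR-200c and 42 than miR-141. miR-200c passed with 0 Gy replicate 3 left out and the same probes kept (-2.93, adjusted p = 0.00803), when 43.5% of all tested miRNAs did, and without 2 Gy replicate 2 (-2.77, adjusted p = 0.0307), the culture in which it was highest at that dose. The fit without 2 Gy replicate 2 called 87 of all 283 tested miRNAs at 2 Gy against 0 Gy. Whether the pair's members differ in their response at 2 Gy was not tested. The log2 level of miR-200c minus that of miR-141 averaged -0.53 ± 0.55 without irradiation and -1.85 ± 0.50 at 2 Gy (SD, n = 4 each). The averages after 6 and 10 Gy were -0.97 ± 1.05 and -0.75 ± 0.51 (SD, n = 4 each), with miR-200c at the floor in 6 Gy replicate 1 and both members at it in replicate 4, where the difference is 0 by construction. The difference was lower in every 2 Gy array than in every 0 Gy array. These are differences of scaled signals, so only their change between doses has a meaning.

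At 10 Gy the levels were nearer to those of the unirradiated cultures. miR-200c had a log2 difference of -0.74 ± 0.85 (SE) against 0 Gy (adjusted p = 0.613, 95% interval from -2.56 to 1.08). miR-141 had a difference of -0.53 ± 0.75 (SE) (adjusted p = 0.691, 95% interval from -2.14 to 1.08). Neither was called, against 0.353% of all tested miRNAs, a single one. With 0 Gy replicate 3 left out and the same probes kept, neither passed, at -1.54 for miR-200c (adjusted p = 0.142) and -1.15 for miR-141 (adjusted p = 0.220), whereas 15.9% of all tested miRNAs did. The slides again differ between these doses.

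Of the comparisons among irradiated groups, that of 10 Gy with 6 Gy lay within 1 slide. miR-200c was higher at 10 Gy by a log2 difference of 1.76 ± 0.85 (SE), with an unadjusted p of 0.0563 and an adjusted p of 0.326. miR-141 differed by 1.54 ± 0.75 (SE), with an unadjusted p of 0.0596 and an adjusted p of 0.326. Neither passed, and 0 of all 283 tested did in this fit, although 42 had an unadjusted p under 0.05. For this pair of doses alone, the deviations of all 4 same-numbered pairs of cultures correlated at over 0.1. The labels do not give this pairing, and it was read from the same values that are tested. The p-values of the block over these 8 arrays are therefore no independent test. With the replicate number as a block over these 8 arrays, both members passed, at 1.76 ± 0.28 (SE, adjusted p = 0.0319) for miR-200c and 1.54 ± 0.39 (SE, adjusted p = 0.0487) for miR-141, as did 19.4% of all tested miRNAs. Without the block these 8 arrays gave an adjusted p of 0.184 and 0.192, and with the block over all 16 arrays both members had an adjusted p of 0.196, with 0 of 283 called in either fit and unadjusted p-values under 0.05 for 69 and 66. When 6 Gy replicate 4 was dropped, the array on which neither was detected, the plain fit gave the smallest of the leave-one-out differences for miR-141, 0.82. Against 0 Gy, the deviations of same-numbered cultures correlated at -0.54, 0.71, 0.75 and -0.76 for 2 Gy. For 6 Gy they correlated at -0.11, 0.82, -0.66 and -0.58. The replicate block over all arrays is therefore not read as a test against 0 Gy, although the counts of passing settings below include it.

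Against 2 Gy, the differences were smaller than their errors or had wide intervals. At 6 Gy miR-200c differed by -0.37 (adjusted p = 0.961, 95% interval from -2.18 to 1.45) and miR-141 by -1.25 (adjusted p = 0.839, 95% interval from -2.86 to 0.36). At 10 Gy miR-200c differed by 1.40 (adjusted p = 0.524, 95% interval from -0.42 to 3.21) and miR-141 by 0.29 (adjusted p = 0.898, 95% interval from -1.32 to 1.90). In both comparisons 0 of the 283 miRNAs passed limma's test, with 14 and 20 at an unadjusted p under 0.05. Over all 4 doses, the F test gave an adjusted p of 0.130 for miR-200c and 0.180 for miR-141, and it called 0 of 283, with 91 at an unadjusted p under 0.05.

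**Figure D3:**
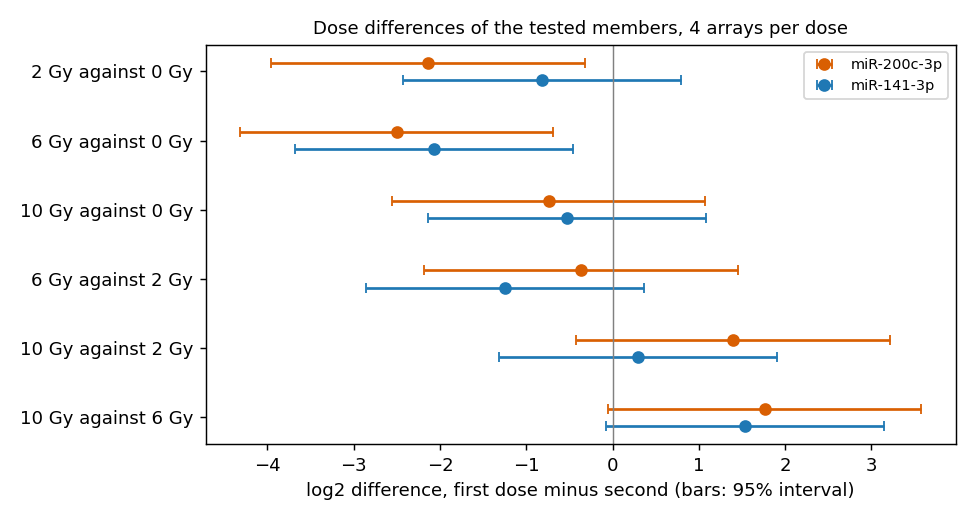
Log2 difference between doses (first dose minus second) of miR-200c-3p and miR-141-3p, with bars for the 95% interval of limma's fit over 4 arrays per dose. Both members lie below 0 in each comparison with 0 Gy. Before adjustment, the intervals of both at 6 Gy against 0 Gy exclude 0, as does that of miR-200c at 2 Gy against 0 Gy. No difference passed after adjustment over 283 miRNAs.

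Over the arrays as a whole, the members moved with a technical measure of the arrays. The labelling spike-in is a synthetic RNA added before the dye reaction, and its log10 signal varied widely: 3.04, 2.50, -0.70 and 2.80 in replicates 1 to 4 at 0 Gy, and 0.31, 2.10, 1.93 and 1.47 at 2 Gy. It was 0.50, 1.66, 1.79 and -0.70 at 6 Gy, and 2.06, 2.71, 2.28 and 1.82 at 10 Gy. Both labelling spike-ins were undetected on 0 Gy replicate 3 and 6 Gy replicate 4, the arrays with the lowest level of miR-141 at their doses, and 1 of 2 was undetected on 2 Gy replicate 1 and 6 Gy replicate 1. The -0.70 on the 2 arrays without either spike-in stands for an undetected signal. It enters the means, the correlations and the fit that uses the spike-in as a number. The labelling spike-in had a mean of 1.91 without irradiation, and 1.45, 0.81 and 2.22 after 2, 6 and 10 Gy. It lay in the range set by the scanner software on 3 of 16 arrays, whereas the hybridisation spike-in was in range on all 16.

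Over the 16 arrays the labelling spike-in and the level of miR-200c had a Pearson's r of 0.81 (permutation p = 2e-05, adjusted p = 4e-05 over 2 relations) and a Spearman's rho of 0.89. Within the slides, r was 0.75 over the arrays of 0 and 2 Gy (exact permutation p = 0.0279) and 0.92 over those of 6 and 10 Gy (exact permutation p = 0.000744). For miR-141 r was 0.79 (permutation p = 9e-05, adjusted p = 9e-05) and rho 0.86, with 0.74 (exact permutation p = 0.0333) and 0.92 (exact permutation p = 0.00303) within the slides. When the 2 arrays with the most extreme spike-in were dropped, r was 0.86 for miR-200c and 0.66 for miR-141. After each dose's mean was taken off, it was 0.83 and 0.77. Not every dose followed this order: at 2 Gy, replicate 1 had the dimmest spike-in and a higher level of miR-141 than replicates 3 and 4.

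When the spike-in level was added to the fit as a covariate, the differences from 0 Gy were smaller at 2 and 6 Gy and larger at 10 Gy. miR-200c then differed by -1.70 at 2 Gy (adjusted p = 0.0208), which passed, by -1.47 at 6 Gy (adjusted p = 0.0791) and by -1.03 at 10 Gy (adjusted p = 0.133). miR-141 differed by -0.46, -1.22 and -0.77 at 2, 6 and 10 Gy, none of which passed. Of all tested miRNAs, 26.1% passed at 2 Gy, 10.2% at 6 Gy and 20.8% at 10 Gy in that fit. Without the 2 arrays that lacked both spike-ins, and with the probes of the full set kept, miR-200c differed by -2.90 at 2 Gy (adjusted p = 0.00604) and by -2.87 at 6 Gy (adjusted p = 0.0104). miR-141 differed by -1.41 (adjusted p = 0.0365) and -1.96 (adjusted p = 0.0123), so both members passed at both doses. At 10 Gy neither passed, with -1.52 for miR-200c (adjusted p = 0.113) and -1.14 for miR-141 (adjusted p = 0.0979). This removal was chosen after the data were seen, and 54.1% of all tested miRNAs passed at 2 Gy, 51.9% at 6 Gy and 27.2% at 10 Gy. Beyond these values, the part of labelling in the dose differences was not tested.

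**Figure D4:**
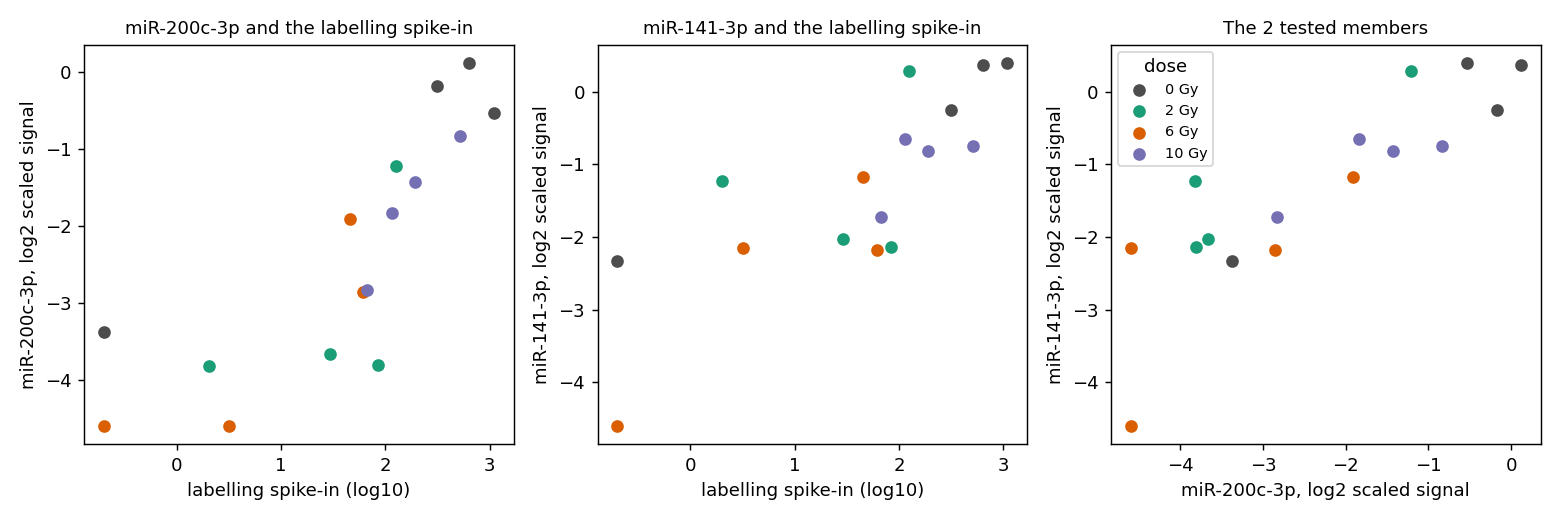
Log2 scaled signal of miR-200c-3p (left) and miR-141-3p (middle) against the log10 signal of the labelling spike-in, and of the tested members against each other (right), 1 point per array in the colour of its dose. Over all 16 arrays r was 0.81, 0.79 and 0.86 from left to right, whereas at 2 Gy replicate 2 alone stands above the other arrays in the left and middle panels.

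The pair from chromosome 12 varied together over the arrays. The levels of miR-200c and miR-141 had a Pearson's r of 0.86 (permutation p = 1e-05, the smallest that the resamples can give) and a Spearman's rho of 0.87 over 16 arrays. Within the slides r was 0.90 (exact permutation p = 0.0209) and 0.84 (exact permutation p = 0.00174), although rho on the slide of 0 and 2 Gy was 0.67 (exact permutation p = 0.0831). It was 0.85 without the 2 arrays farthest from the median of miR-200c, and 0.85 after the dose means were taken off. As both were read on the same arrays, they share the labelling and the scaling.

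The locus partner was not the miRNA most like either member. Over the same 16 arrays, the closest to miR-200c were miR-361-5p (r = 0.99), miR-125b-5p (r = 0.98), miR-181a-5p (r = 0.98), miR-324-3p (r = 0.98) and miR-342-3p (r = 0.97), and miR-141 ranked 39th of 282. The closest to miR-141 were miR-17-5p of the miR-17-92 cluster (r = 0.96), miR-210-3p (r = 0.93), which is induced by hypoxia, miR-1972 (r = 0.92), miR-151a-3p (r = 0.92) and miR-324-3p (r = 0.92), and miR-200c ranked 19th. The median r over the other 282 miRNAs was -0.26 for miR-200c and -0.25 for miR-141. These correlations describe arrays that share labelling and scaling, and they carry no test.

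Of a list of 10 other miRNAs tied to epithelial identity, 2 were detected on any array, where 34.0% of all human miRNAs were: miR-34a-5p, a target of p53 that represses SNAI1, on 12 arrays and miR-375 on 9. miR-205, a further repressor of the ZEB messenger RNAs, and miR-203a were detected on 0 arrays, as were miR-101, miR-30a, miR-34c, miR-192, miR-194 and miR-215. The last 3 are abundant in colon epithelium, so of 8 miRNAs used as markers of that tissue the 5 detected were the miR-200 family itself. The only tested one of the 10, miR-34a-5p, did not pass against 0 Gy, with -1.76 at 2 Gy (adjusted p = 0.141), -1.96 at 6 Gy (adjusted p = 0.0867) and -0.62 at 10 Gy (adjusted p = 0.663).

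Of 6 miRNAs linked to the mesenchymal state or to invasion, 4 were tested, and more of them were lower than higher after irradiation. miR-222-3p and miR-155-5p were detected on all 16 arrays, miR-221-3p on 12 and miR-21-5p on 11. The differences of the last 2 thus include undetected readings, and their sizes are uncertain. miR-21-5p, which represses PDCD4, fell by 2.79 on the log2 scale at 2 Gy (adjusted p = 0.0225) and by 2.72 at 6 Gy (adjusted p = 0.0304). miR-221-3p fell by 2.03 (adjusted p = 0.0283) and by 1.79 (adjusted p = 0.0407). Its cluster partner miR-222-3p did not pass, at -1.90 (adjusted p = 0.0520) and -1.61 (adjusted p = 0.0636), and miR-155-5p was 0.31 higher at 6 Gy (adjusted p = 0.0407). In all, 0 rose and 2 fell at 2 Gy, 1 rose and 2 fell at 6 Gy, and 0 passed at 10 Gy. Over all 283, 6.01% rose and 6.71% fell at 2 Gy, 6.01% rose and 13.4% fell at 6 Gy, and 1 passed at 10 Gy. With no scaling, or with only the 8 arrays of the doses compared, 0 of 283 passed limma's test at 2 or 6 Gy against 0 Gy, with 36 and 62 at an unadjusted p under 0.05 in the first setting and 69 and 75 in the second. The median difference of these 4 was -1.96, -1.70 and -0.33 at 2, 6 and 10 Gy, against -1.48, -2.29 and -0.63 for the 2 tested miR-200 members and 0.03, 0.12 and -0.02 over all 283.

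Most markers of fibroblasts, smooth muscle and blood cells were detected on no array, where 34.0% of all human miRNAs were detected on at least 1. No cell type is read from a single miRNA. Of 5 miRNAs of fibroblasts and smooth muscle, miR-145-5p was detected on all 16 arrays and the other 4 on 0. The summed Agilent signal of that list ranged from 35.5 to 123 at 0 Gy, 22.4 to 68.8 at 2 Gy, 17.3 to 71.9 at 6 Gy and 22.6 to 58.3 at 10 Gy. Of 8 miRNAs of blood cells, miR-486-5p was detected on all 16 arrays and the other 7 on 0, with a sum of 21.7 to 41.9 at 0 Gy, 22.3 to 46.2 at 2 Gy, 23.5 to 65.8 at 6 Gy and 20.2 to 35.6 at 10 Gy. The liver miRNA miR-122-5p was detected on 4 arrays and miR-885-5p on 1. The 8 colon epithelium miRNAs include the 5 miR-200 members, and the rest were detected on 0 arrays. Their sum is thus in effect that of the family and no separate marker. It ranged from 126 to 782 at 0 Gy, 88.3 to 937 at 2 Gy, 6.10 to 329 at 6 Gy and 94.8 to 369 at 10 Gy. None of these sums is scaled between arrays. The medium held bovine serum in every group, and the part of serum miRNAs in these values was not tested.

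Across the series, each array detected 242 to 358 of the human miRNAs, and no spot was saturated. All 0 and 2 Gy arrays lay on 1 slide with 1 scan, and all 6 and 10 Gy arrays on the other. No pair of arrays held identical values.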

How the data were processed

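Each array file holds Agilent Feature Extraction 11.5.1.1 output, per the file headers: a processed signal, which is a background-subtracted intensity not scaled between arrays, median spot and background intensities, total signals per miRNA, and flags. RNA was extracted with ISOGEN and labelled with Cy3, per the labels' protocols. Control and outlier spots were left out and spots of a probe averaged. Signals were scaled by each array's 75th percentile over 518 probes seen on all 16 arrays, floored at 0.0412 (the 5th percentile of detected probes, median of the arrays) and put on log2. Tested miRNAs had a probe detected on every array of some dose, and passing probes were averaged (592 probes, 283 miRNAs, 4.17% of values at the floor). limma 3.58.1 in R 4.3.3 (lmFit, eBayes) was fitted to all arrays with a mean per dose. Adjusted p-values are Benjamini-Hochberg over the 283. A shift common to all miRNAs is lost by scaling. The number of arrays limits the precision.

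Named were the 5 members, the tested or detected miRNAs of the lists, and for each tested member the 5 miRNAs with the highest Pearson's r. Members and lists were chosen with earlier results of these data known. Replicate numbers were checked by correlating deviations from dose means: over 24 same-numbered pairs r ran from -0.76 to 0.87, with 14 over 0.1. Only for 10 against 6 Gy were all 4 over 0.1 (0.23, 0.72, 0.44 and 0.67), so only there were they taken as paired, a pairing read from the data. Correlations used permutation tests with exact enumeration within slides. Code was tested on simulated data.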

Additional observations from a re-analysis of the deposited data

Results flagged for a closer look

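In 7 of 20 groups of 4 arrays checked, 1 array lay apart from the other 3 by Dixon's criterion, which chance alone meets in about 1 of 20 groups. Levels are log2 scaled signals of the brighter or passing probes. Replicate 2 at 2 Gy was the highest of its dose for miR-200c (-1.22, next -3.66), miR-200b (-3.64) and miR-429 (-3.92), the others of the last 2 members being at the floor of -4.60. Replicate 2 was also apart for miR-200b at 6 Gy (-4.54) and for miR-429 at 10 Gy (-3.96), again over arrays at the floor, where a gap of any size meets the criterion. miR-141 was lowest in replicate 4 at 10 Gy (-1.72, next -0.82). The labelling spike-in was lowest in replicate 3 at 0 Gy (-0.70 in log10, next 2.50), where that value stands for an undetected signal. Several of these groups are the same arrays read through different members, so the flags are not independent.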

How the results depend on the processing

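Of 415 recomputed values, 365 kept their direction and side of the threshold, 41 passed where the reported value had not, and 9 changed sign, none of them called. The calls at 6 Gy against 0 Gy lie near the threshold. miR-200c passed in 13 of 17 settings other than leaving out 1 array (adjusted p from 0.00348 to 0.150) and miR-141 in 7 of 17 (0.00815 to 0.169), and each in 3 of 16 that left out 1 array (up to 0.124 and 0.158). The passing settings among the 17 include several that drop 0 Gy replicate 3, chosen after the data were seen, so the settings are not independent. miR-200c did not pass with no scaling (0.135), a floor 2 times higher (0.0835), the covariate (0.0791) and the 8 arrays compared (0.150). miR-200c at 6 Gy against 0 Gy passed (log2 difference, adjusted p) with the 75th percentile over all human probes (-2.15, 0.0250), quantile normalization (-2.35, 0.0360), normexp (-1.67, 0.0393), Agilent's total signal (-2.68, 0.0446), the brightest probe (-2.50, 0.0473), no filter (-1.56, 0.0380), a floor 4 times lower (-3.05, 0.0461) and slide row as a block (-2.50, 0.0377). miR-141 passed there under the first 2 (-1.67, 0.0413; -1.95, 0.0452) and slide row (-2.07, 0.0278). In the order listed for miR-200c, these settings called 183, 127 and 37 of 283 miRNAs and 86 of 331. The rest called 66 of 283, 90 of 371, and 56 and 80 of 283, against 55 in the reported fit. With no scaling limma's test called 0 of 283 there (62 at an unadjusted p under 0.05). The first setting moves the median of all miRNAs to 0.52, so its differences are relative to that. A replicate block over all arrays gave miR-200c -2.14 and -2.50 at 2 and 6 Gy and miR-141 -2.07 at 6 Gy, all passing. It called 68 and 75 of 283, but replicates were not taken as paired there, so no test is read. Over the 8 arrays of 6 and 10 Gy it gave 1.76 and 1.54. With the spike-in covariate miR-200c passed at 2 Gy (-1.70). Without the 2 arrays lacking both spike-ins and with probes chosen anew, miR-200c gave -1.80, -1.78 and -1.11 at 2, 6 and 10 Gy against 0 Gy and miR-141 -1.41 and -1.96 at 2 and 6 Gy, all passing; with the full set's probes, miR-200c gave -2.90 and -2.87. With 0 Gy replicate 3 alone left out and the full set's probes, miR-200c gave -2.93 and -3.29 and miR-141 -2.69 at 6 Gy. Without 4 arrays lacking a spike-in miR-200c gave -1.63, -1.38 and -1.07. In that fit, and in the fit without 2 arrays with probes chosen anew, a dimmer probe of miR-200c entered only through 0 Gy, where it is high. Signs turned for miR-141 at 10 against 2 Gy with no scaling (-0.056) and the covariate (-0.30), and for miR-200c at 6 against 2 Gy with a floor 2 times higher (0.011), the covariate (0.24), and without 2 arrays (0.014, or 0.029 with the full set's probes) or 4 arrays (0.25), 2 Gy replicate 2 (0.28) or 6 Gy replicate 1 (0.0091). The causes were not tested.

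Leaving out 1 array at a time, miR-200c ranged from -2.77 to -1.77 (2 against 0 Gy), -3.01 to -2.04 (6 against 0), -1.17 to -0.37 (10 against 0), -0.88 to 0.28 (6 against 2), 0.70 to 2.03 (10 against 2) and 0.88 to 2.27 (10 against 6). miR-141 ranged from -1.44 to -0.53, -2.69 to -1.36, -1.15 to -0.25, -1.69 to -0.56, 0.0045 to 0.81 and 0.82 to 1.98 in the same order. Without 0 Gy replicate 3 a second, dimmer probe of miR-200c passes the filter, which pulls its differences towards 0 and makes their errors smaller, and its passing value at 10 Gy (-1.17, 0.0327) does not hold with the full set's probes (-1.54, 0.142). Requiring detection on all 16 arrays leaves neither member to test. With no filter, the chromosome 1 members at 6 against 0 Gy gave -0.30 (miR-200a), -0.98 (miR-200b) and -0.86 (miR-429), each with an adjusted p of 0.0380, but most values lie at the floor and have no spread, so these p-values are too small. For dim members, the signal over background sets the limit.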
